A study of Mus musculus with 2 samples.

Results

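The genes described here encode the subunits of the respiratory chain and of ATP synthase that are encoded in the nucleus. They were taken by gene symbol from the names on the array (symbols beginning Nduf a, b, c, s or v, the 4 Sdh genes, and symbols beginning Uqcr, Cox4 to Cox8 or Atp5). This gave 84 of 37074 gene names, with 129 of 56605 probes and 138 of 59305 spots that are not controls. Of the 84 genes, 77 gave a signal well above background on both arrays. Cox7b2, Cox8b, Cox8c and Ndufa4l2 were not well above background on WT or on MeXis null, and the spots of Ndufb3, Ndufc1 and Cox7a2 were marked as outliers by the scanner software and left out.

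The study compared macrophages from the peritoneal cavity of wild-type (WT) mice and of MeXis null mice, both given as strain bl6. MeXis is a long noncoding RNA gene near Abca1, the gene of a cholesterol exporter, and the comparison asks how its loss relates to expression in these cells. Cells of both genotypes were kept in DMEM with serum, and no treatment is named in the labels. Total RNA pooled from 3 samples per genotype was labelled with Cy3 and hybridised to 1 Agilent array per genotype.

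The respiratory chain lies in the inner mitochondrial membrane. Complex I takes electrons from NADH and complex II from succinate, complex III passes them to cytochrome c, and complex IV to oxygen, while complexes I, III and IV pump protons whose return through complex V, ATP synthase, drives ATP synthesis. Core subunits carry the redox centres or the catalytic sites, and many small accessory subunits serve assembly and stability. In macrophages the balance between this oxidative metabolism and glycolysis is known to shift with activation.

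With 1 array per genotype there was no replicate and no test of the genotype, and every value below is a description of these arrays. Signals are the processed intensities of the scanner software, on a linear scale, and a difference is the log2 signal on MeXis null minus that on WT, after each array was scaled to its 75th percentile. A gene with more than 1 probe is represented by its brightest. A gene is called higher or lower where it differed by at least 1.5-fold and by more than the 95% limit of the scanner's own error, whose median was 0.20. A second measure of error came from 285 probes that had 5 or more usable spots above background: their spots gave differences with a median SD of 0.47, so that a single spot has a 95% limit of 0.91, or 1.88-fold. The differences of spots that lie close together on the glass resembled each other. Differences of called genes, and others that moved far, are therefore also given after local surface correction, in which the median difference of the 100 nearest spots is subtracted, and which lowered that SD to 0.33 and the limit to 0.64.

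The single MeXis probe (chromosome 4, 53274285 to 53274344, mm9) did not check the labels, since neither of its signals (12.3 on WT, 8.44 on MeXis null) was well above background. Abca1 was lower on MeXis null, 4339 on WT and 1478 on MeXis null (-1.63). On WT 48.0% of spots and on MeXis null 44.3% were well above background, and 0 spots were saturated. Of 10 macrophage markers on the array 9 were measured (Timd4 was not), with a summed signal of 303311 (WT) and 454721 (MeXis null) and a median difference of 0.55, or 0.05 after surface correction. Cd68 (115941 and 196155) and Lyz2 (71554 and 179211) contributed most to the difference between the sums. Of the 9 markers 4 were called higher and 2 lower, namely Csf1r (-0.86, and -0.82 after surface correction) and Mertk (-1.95, and -1.16). Other measured probes of these named markers stood at 0.16 for Csf1r, at 0.22 for Lyz2, and at 0.80 and -0.51 for Cd68. Over all genes 18.9% were called higher and 13.6% lower. Markers of other cells also differed: 4 of 5 measured B cell genes were lower (summed signal 3700 and 2395, with Pax5 not above background on both arrays), while 4 of 6 fibroblast genes (7197 and 12907) and 3 of 6 mesothelial genes (774 and 1845) were higher. Lum, also on the fibroblast list, was well above background on WT only (131 and 40.3). In the T and NK cell list 2 genes were measured and 1 was lower (344 and 212), in the eosinophil list 1 was measured and was lower (2430 and 1538), and of 6 striated muscle genes 0 were measured. Ear2 (1475 on WT and 34.3 on MeXis null) and Ear1 (376 and 28.6), both on the eosinophil list, were well above background on WT only. The rest of that list, Epx (3.68 and 9.41), Prg2 (5.66 and 8.09) and Ccr3 (3.81 and 7.50), was not well above background on WT or on MeXis null. In pooled bulk RNA fewer cells of a type and less RNA per cell cannot be told apart, and the part of these cells in the differences below was not tested.

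As a set, the subunit genes stood near the rest of the array. Their median difference was 0.12, against 0.05 over all 15482 measured genes. Of the 77 members 11 (14.3%) were called higher, where 18.9% of all genes were, and 6 (7.79%) lower, where 13.6% of all genes were. Differences within 1.5-fold were seen for 77.9% of the members and 66.9% of all genes. The median size of a difference, whatever its sign, was 0.30 in the members and 0.39 over all genes. The SD over the members was 0.55, and over all genes it was 0.66. Between spots of a single probe the median SD was 0.47 over the 285 probes, and it was 0.29 for the 10 spots of the member Atp5g2. Whether the spread of the members exceeds that between spots was not tested. At 2-fold, 5 members were called higher (7.68% of all genes) and 3 lower (4.55%).

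After local surface correction the members' median was 0.09 and that of all genes -0.04. The number called higher was then 4 (11.4% of all genes) and lower 2 (13.1%), and the members' SD was 0.36 against 0.55 over all genes. Between spots of a single probe the median SD was then 0.33, and for the spots of Atp5g2 it was 0.28. The share of calls that were higher was 64.7%, but it was 8 of 16 calls with loess scaling, 52.0% with normexp background correction, 52.9% with quantile normalization or the 75th percentile of all probes, 83.3% with the median of a gene's probes and 9.09% with spike-in scaling. Spike-in scaling moved the median of all genes to -0.66 and that of the members to -0.60. Relative to all genes the members then stood at 0.06, as they did with the 75th percentile.

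**Figure D1:**
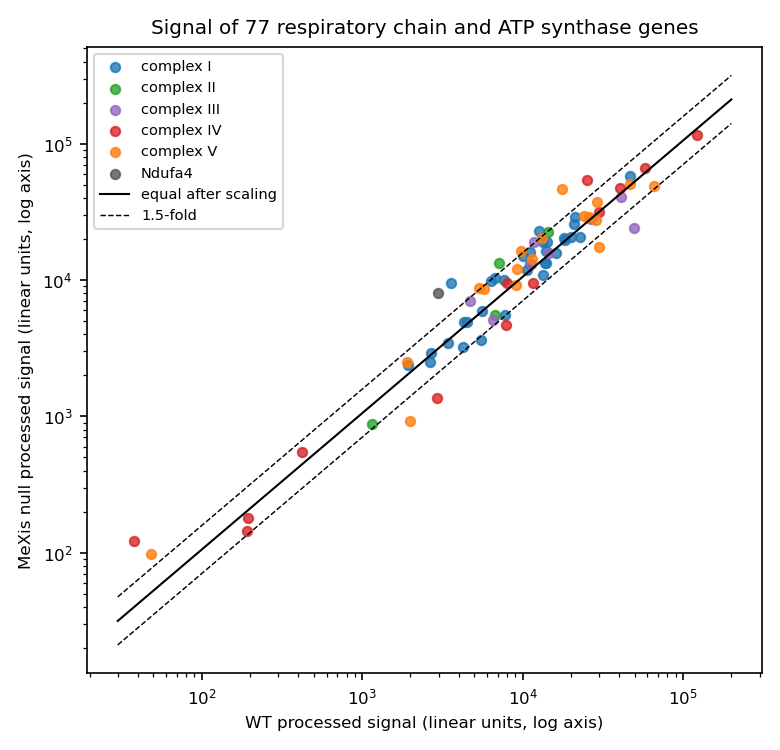
Processed signal of the 77 measured genes on WT (x) and MeXis null (y), on log axes, 1 point per gene and coloured by complex. The solid line marks equal signal after scaling and the dashed lines 1.5-fold, and most points (77.9%) lie between the dashed lines over a range of WT signal from 37.6 (Cox6b2) to 121779 (Cox6a1).

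Some of the probes are shown first, because several results turn on them. The array carries 3 probes for Atp5h, the d subunit in the peripheral stalk that holds the catalytic head of ATP synthase in place, all within a short stretch of chromosome 11 (minus strand, mm9). A pair of them overlap by 14 bases, which are in capitals below, and both have an open reading frame over their 60 bases.
Atp5h, 115277134 to 115277193: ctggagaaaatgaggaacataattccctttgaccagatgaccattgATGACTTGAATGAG
Atp5h, 115277088 to 115277147: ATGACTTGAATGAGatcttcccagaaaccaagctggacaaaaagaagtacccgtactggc
The upper probe gave 10495 on WT and 24265 on MeXis null, a difference of 1.13, and the lower probe gave 23237 and 18161, a difference of -0.43. The third probe (115277011 to 115277070), the brightest, gave 30007 and 17299, a difference of -0.87. Probes to neighbouring stretches of the same transcript were thus on both sides of 0. After surface correction the same probes, in that order, stood at 0.85, -0.06 and -0.83, and the opposite signs of the outer pair remained.

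Probes of Atp5b, the catalytic beta subunit of the F1 head, and of Sdhb, the iron-sulfur subunit of complex II, are shown for the same reason (plus strand, mm9). The genome span of the first Atp5b probe and of the Sdhb probe below is longer than their 60 bases, as for a probe that joins exons.
Atp5b, chromosome 10, 127521478 to 127522156: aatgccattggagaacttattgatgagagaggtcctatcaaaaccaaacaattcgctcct
Atp5b, chromosome 10, 127526024 to 127526083: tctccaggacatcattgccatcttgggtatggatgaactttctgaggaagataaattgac
Sdhb, chromosome 4, 140522514 to 140527081: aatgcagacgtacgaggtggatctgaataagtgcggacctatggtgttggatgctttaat
These Atp5b probes gave 744 and 1414 (0.85) and 12672 and 32446 (1.28), whereas the brightest Atp5b probe gave 25966 and 28737 (0.07). The Sdhb probe gave 6331 on WT and 4872 on MeXis null (-0.45), whereas the brightest Sdhb probe gave 14490 and 22540 (0.56). After surface correction these Atp5b probes stood at 0.83 and 0.33 and the brightest at -0.02, and the Sdhb probes at -0.10 and 0.41. For neither gene did the probes give a single size of difference, and for Sdhb they gave no single sign.

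Among the 25 members with more than 1 measured probe, 9 had probes on both sides of 0 (36.0%), and in 12 (48.0%) the probes spanned at least 1.5-fold. The 9 included Ndufa5, Ndufv3, Sdhb, Uqcrb, Atp5sl, Atp5h, Atp5f1 and Atp5g1. Over all 5194 genes with more than 1 measured probe these shares were 54.6% and 56.9%. After surface correction 14 of the 25 members (56.0%) had probes on both sides of 0, against 51.5% of all such genes, and in 7 the probes spanned at least 1.5-fold, against 45.2%. The widest span was that of Atp5g1, a gene for the c subunit of the rotating ring, whose 3 probes stood at 0.66, 0.20 and -1.86 (0.09, 0.20 and -1.27 after surface correction). The probes of Atp5g1, like those of Ndufv3 and Atp5f1, are annotated to different transcripts. Whether they report the same RNA was not determined. For Atp5f1, the b subunit of the peripheral stalk, the brightest probe stood at -0.07 and another at 1.53 (5152 on WT and 15655 on MeXis null), and after surface correction they stood at 0.12 and 0.81. Of the 17 called members 5 had more than 1 measured probe, and only for Atp5l did all of them have one sign. Atp5g1, Atp5h and Atp5sl were among the other 4.

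Complex I, the largest complex, had 33 of 35 genes measured. Their median difference was 0.08, 2 were called higher and 1 lower, and 90.9% lay within 1.5-fold (66.9% of all genes). The calls were 6.06% higher and 3.03% lower, against 18.9% and 13.6% of all genes. The median was 0.13 after surface correction and 0.03 with loess scaling, and its sign was negative only with spike-in scaling (-0.63), among the alternatives run. The 17 measured genes of the membrane arm, the part that pumps protons, all lay within 1.5-fold, from -0.38 (Ndufs5) to 0.50 (Ndufc2). Of these 17 genes 0 were called, against 18.9% higher and 13.6% lower over all genes. They also had no call after surface correction or with loess, but 1 was called higher with the median of a gene's probes, 1 in each direction with normexp or with outlier spots kept, and 9 lower with spike-in scaling.

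In the peripheral arm, which holds the NADH site and the chain of iron-sulfur clusters, 16 genes were measured with a median of 0.07. All 3 calls of complex I were found there, 12.5% of the arm higher and 6.25% lower, against 18.9% and 13.6% of all genes. Ndufa12, an accessory subunit of this arm, gave 3561 on WT and 9520 on MeXis null, 2.54-fold higher (1.34, and 1.05 after surface correction). It was the furthest of complex I from 0, was beyond the limit between spots, and was called higher in all 13 settings, as reported and in 12 alternatives (chromosome 10, 93683562 to 93683621, mm9). Not all of these settings could change it. For a bright gene with 1 measured probe, the series matrix, the filters on dim probes and the median of a gene's probes return the same value. Ndufs6, an accessory subunit that binds zinc, gave 12727 and 22929, 1.71-fold higher (0.77). It lay within the limit between spots, and after surface correction stood at 0.54 and was not called.

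Of the 7 nuclear core subunits, which carry the flavin, the iron-sulfur clusters and the quinone site, the median was -0.06. Ndufs1 (6729 and 10411) and Ndufs8 (6371 and 9854), both carriers of iron-sulfur clusters, each stood at 0.55, just inside 1.5-fold, and Ndufs3, of the module that holds the quinone site, at -0.56 (7748 and 5527). Ndufv1, the flavin subunit, stood at 0.08, Ndufv2 at -0.06 and Ndufs7 at -0.14. The core subunits were thus spread on both sides of 0, and after surface correction all 7 lay within -0.26 and 0.32.

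Other accessory genes with low differences or strong signals also lay within 1.5-fold. Ndufa9, at the base of the peripheral arm, was at -0.48 (4273 and 3229). Ndufa13, also known as Grim19, gave 46714 on WT and 57891 on MeXis null (0.23, and 0.32 after surface correction). Ndufa3 gave 21216 and 29166 (0.38), and Ndufa1 gave 22637 and 20704 (-0.20). Of the outlier-marked spots, Ndufb3 stood at -1.44 (marked on MeXis null) and Ndufc1 at 0.88 (marked on WT), and neither has another spot to set against it.

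Ndufa4 was long counted with complex I and is now placed with complex IV, so it is given apart. It gave 2958 on WT and 7964 on MeXis null, 2.56-fold higher (1.35, and 1.10 after surface correction). It was beyond the limit between spots both before and after that correction and was called higher in all 13 settings, from 0.64 with spike-in scaling upward (chromosome 6, 11850423 to 11850482, mm9). As for Ndufa12, some of these settings could not change its value. Its paralog Ndufa4l2, known as a gene induced by low oxygen, was not well above background on WT or on MeXis null.

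Complex II, succinate dehydrogenase, is the only complex of the chain made wholly from nuclear genes and is shared with the TCA cycle. All 4 genes were measured, and they were split evenly about 0. Sdhd, a membrane anchor, gave 7115 on WT and 13371 on MeXis null, 1.78-fold higher (0.84), and was the only call. Its 100 nearest spots had a median of 0.73, however, and after surface correction Sdhd stood at 0.10. Sdhc, the other anchor, gave 6746 and 5555 (-0.35). Sdha, the flavin subunit that oxidises succinate, gave 1144 and 872 (-0.47), and its second measured probe gave 178 and 130 (-0.52). After surface correction Sdha stood at -0.64 and was then called lower, while its second probe stood at -0.38. Another Sdha probe, marked as an outlier on MeXis null and left out, stood at -0.82 as scaled (10484 and 6265) and at -0.24 after surface correction. Anchors and catalytic subunits thus did not differ together: the median of the 4 genes was 0.10, and -0.06 after surface correction.

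Complex III, which passes electrons from ubiquinol to cytochrome c, had all 8 genes measured, 4 of them above 0 and 4 below, with a median of 0.01. Uqcrh, the hinge protein beside cytochrome c1, gave 49666 on WT and 24197 on MeXis null, 2.16-fold lower (-1.11). This was beyond the limit between spots, but its neighbours stood at -0.60, and after surface correction it was at -0.51 and not called. Uqcr11, the smallest subunit, gave 11820 and 18966, 1.52-fold higher (0.61, and 0.32 after surface correction). Both calls of complex III were thus lost with that correction, and Uqcr11 was called in 7 of 13 settings. As scaled, 12.5% of the 8 genes were called in each direction, against 18.9% higher and 13.6% lower over all genes.

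The other 6 genes of complex III lay within 1.5-fold. The Rieske iron-sulfur protein Uqcrfs1 stood at -0.45 (6568 and 5067). The core proteins Uqcrc1 and Uqcrc2, which face the matrix, stood at 0.14 (11294 and 13063) and 0.50 (4678 and 6986). Uqcrb, beside the quinone site, was at 0.03 (14639 and 15725) and Uqcr10 at -0.01 (26799 and 27968), each with a second probe of nearly the same difference (-0.03 and -0.13). Uqcrq was at -0.09 (40852 and 40291). The 4 genes from Uqcrq to Uqcrc1 in the order of their differences lay between -0.09 and 0.14, well inside the error of a single spot.

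**Figure D2:**
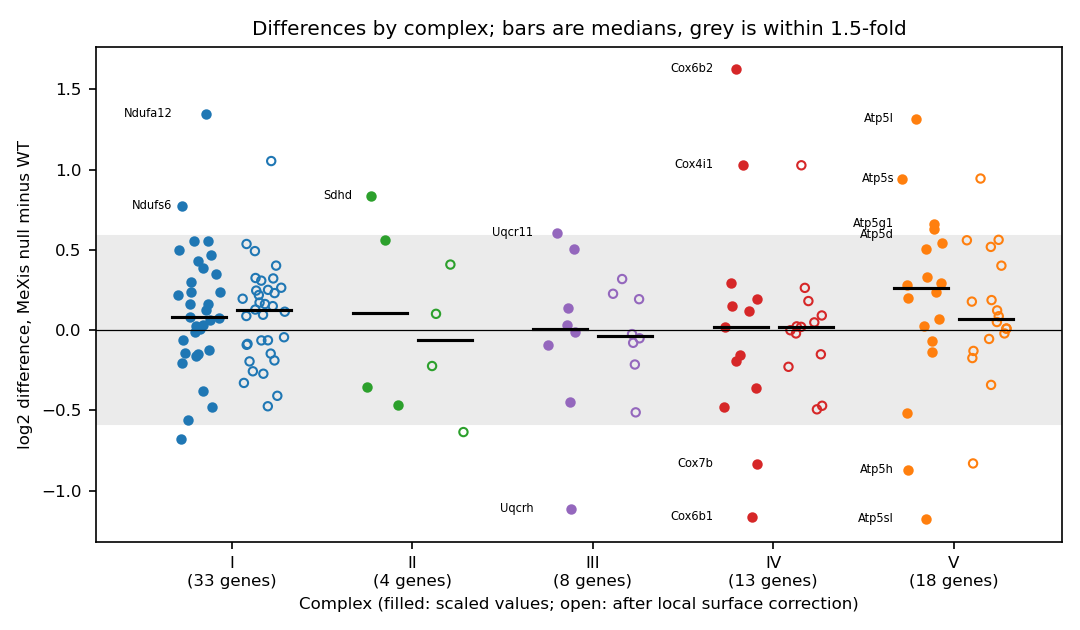
Log2 difference of each measured gene (y, MeXis null minus WT) by complex (x), as scaled (filled) and after local surface correction (open); Ndufa4 is left out, bars are medians and the grey band is 1.5-fold, and called genes that the text describes are named. Medians as scaled run from 0.01 in complex III to 0.26 in complex V, and of the open points 0 genes of complex III, 1 gene each of complexes I, II and IV, and 2 of complex V lie outside the band.

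Complex IV, cytochrome c oxidase, had 13 of 17 genes measured. Their median was 0.02 and 2 were called in each direction (15.4%, against 18.9% higher and 13.6% lower over all genes). Cox4i1, the ubiquitous form of the subunit through which ATP is known to slow the enzyme, gave 25343 on WT and 54443 on MeXis null, 2.04-fold higher (1.03). Its probe lies on chromosome 8 (plus strand, 123197924 to 123197983, mm9) and has an open reading frame over its length.
Cox4i1: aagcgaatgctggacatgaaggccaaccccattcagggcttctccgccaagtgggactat
The 100 nearest spots had a median of 0.85, the highest at any member, and after surface correction Cox4i1 stood at 0.18. Cox6b1, on the side of the intermembrane space, gave 2921 and 1369, 2.25-fold lower (-1.17), with its neighbours at -0.67 and a corrected value of -0.49. Cox7b, another small accessory subunit, gave 7855 and 4646, 1.78-fold lower (-0.83, and -0.47 after surface correction). These 3 genes, which have 1 measured probe each, were within 1.5-fold after the correction. Cox6b1 and Cox7b were called lower in 12 of 13 settings, all but surface correction, though some settings could not change their values. As scaled, Cox7b lay within the limit between spots.

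Other subunits of complex IV found in most tissues lay within 1.5-fold. Cox6a1 gave 121779 on WT and 115228 on MeXis null (-0.15), and Cox8a gave 57579 and 65713 (0.12). Cox5a, which lies on the matrix side, stood at 0.02 (29766 and 31696). Cox7a2l, a factor in the joining of complexes III and IV, stood at 0.15 (40492 and 47212), and Cox6c at -0.36 (11671 and 9576). Cox7c stood at 0.19 with its brightest probe (7962 and 9578) and at 1.20 with a dimmer one (259 and 626, and 0.61 after surface correction). For the nuclear subunits expressed in most tissues the median of 9 genes was 0.02, the same after surface correction.

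Several subunits of complex IV have isoforms that are known from muscle, lung or testis. Of 7 such genes on the array, Cox7b2, Cox8b and Cox8c were not well above background, and the other 4 gave signals between 37.6 and 545. Cox6b2, the testis form of Cox6b, gave 37.6 on WT and 122 on MeXis null, 3.08-fold higher (1.62, and 1.03 after surface correction), and was called in all 12 settings that gave it a value. Among these settings the series matrix, the lifted filter on dim probes and the median of a gene's probes could not change its value. Cox6b2 was the highest member, yet its WT signal stood near the lowest signals well above background, 12.1 on WT and 27.3 on MeXis null. The muscle forms Cox6a2 (192 and 145) and Cox7a1 (422 and 545) stood at -0.48 and 0.29, and the lung form Cox4i2 (195 and 180) at -0.19. Levels of isoforms were not set against each other, since probes differ in their response.

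Complex V, ATP synthase, had all 18 genes measured, with 4 called higher (22.2%) and 2 lower (11.1%). Over all genes these shares were 18.9% and 13.6%. The median of complex V was 0.26. That median was 0.07 after surface correction, 0.09 with quantile normalization and -0.46 with spike-in scaling. Of the 18, Atp5s and Atp5sl are not subunits of the enzyme and Atp5c1-ps is named as a pseudogene, so signal from Atp5c1 cannot be told apart from its own. Without these 3 the median of 15 subunits was 0.24, and 0.05 after surface correction. By part of the enzyme the medians were 0.07 for the 5 genes of the F1 head and central stalk, 0.07 for the 4 genes of the peripheral stalk and 0.53 for the 6 genes of the membrane part.

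All 6 membrane genes, which encode the c ring and the small subunits e, f and g, stood above 0, from 0.03 (Atp5g2) to 1.31 (Atp5l). With quantile normalization, loess, median scaling, the 75th percentile of all probes or surface correction 5 of the 6 did, and with spike-in scaling 1 did. Their median was 0.24 after surface correction and 0.25 with the median of a gene's probes. Atp5l, subunit g, which helps join ATP synthase dimers, gave 17681 on WT and 46302 on MeXis null, 2.49-fold higher (1.31, and 0.94 after surface correction). Its second probe gave 13302 and 27352 (0.97, and 0.47 after surface correction). Atp5l was the only member with more than 1 measured probe whose call held in all 13 settings (chromosome 9, 44721421 to 44721480, mm9). The series matrix and the filters on dim probes could not change its value. Atp5j2, subunit f, stood at 0.51 (5730 and 8576), and Atp5k, subunit e, at 0.24 (11519 and 14302).

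The c subunit of the rotating ring is encoded by 3 genes that give the same mature protein. Atp5g1 gave 9806 on WT and 16341 on MeXis null, 1.58-fold higher (0.66), but 0.09 after surface correction, and its other probes are given above. Atp5g3 stood at 0.54 (13209 and 20277) and at 0.01 after surface correction. For Atp5g2 the array holds 10 spots of 1 probe, which show the error of a single spot directly. On WT they ranged from 35627 to 60285 (median 47803) and on MeXis null from 37895 to 64156 (median 49009). The ranges of the spots overlapped almost wholly, and the difference per spot ran from -0.39 to 0.39, 5 spots above 0 and 5 below. Their mean was 0.03 ± 0.29 (SD, 10 spots of 1 pair of arrays, which are not replicates of the genotype). Atp5g2 is the member whose difference is known best on these arrays, and it is close to 0.

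In the F1 head, the alpha subunit Atp5a1 gave 66188 on WT and 48658 on MeXis null (-0.52, and -0.17 after surface correction), and its second probe stood at -0.24. The gamma subunit Atp5c1 stood at -0.14 (28623 and 27387) and the epsilon subunit Atp5e at 0.28 (29028 and 37148). Atp5d, the delta subunit of the central stalk, was the only call of the head, with 5354 and 8710, 1.55-fold higher (0.63). It stood at 0.56 after surface correction, just under 1.5-fold, and was called in 7 of 13 settings. In the peripheral stalk Atp5h was called lower on its brightest probe, 1.83-fold, as scaled within the limit between spots. Of its other probes shown above, one was also below 0 (-0.43) and one stood at 1.13. Atp5o, which links the stalk to the head, stood at 0.20 (24110 and 29211) with a second probe at 1.12, and after surface correction they stood at -0.13 and 0.67. Atp5j stood at 0.29 (9263 and 11942).

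The genes that carry an Atp5 symbol without being subunits differed in opposite directions. Atp5sl, known from assembly of complex I, gave 2001 and 931 on its brightest probe, 2.26-fold lower (-1.18), with neighbouring spots at -0.84, the lowest at any member, and -0.34 after surface correction. Its second probe gave 334 and 547 (0.64). Atp5s was dim, at 48.0 and 97.3 (0.94, and 0.56 after surface correction). Neither was called after surface correction.

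Of the 17 calls, 5 were kept in the same direction after surface correction and 12 were not. The 5 were Ndufa12, Ndufa4, Cox6b2, Atp5l and Atp5h. In all 17 the 100 nearest spots had a median of the same sign as the gene. For the calls kept, for this shared sign and for calls held in every setting, no share over all called genes is given. These counts are therefore not read as particular to the members. Across the 77 members the difference followed that of the neighbouring spots with r = 0.78, and across all genes with r = 0.55; genes are not independent replicates and share the arrays, and r is given as a description. The neighbour medians ranged from -0.84 to 0.85. With signal level the member differences gave r = -0.05. Beyond the limit of the spread between spots lay 6 members above (9.41% of all genes) and 3 below (5.72%), and after surface correction 4 above (10.1%) and 1 below (11.1%). Only 4 members, all of them higher, were called in every setting that gave them a value, namely Ndufa12, Ndufa4, Cox6b2 and Atp5l. Some of the settings could not change the values of these 4 members, as described for Ndufa12, Cox6b2 and Atp5l.

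**Figure D3:**
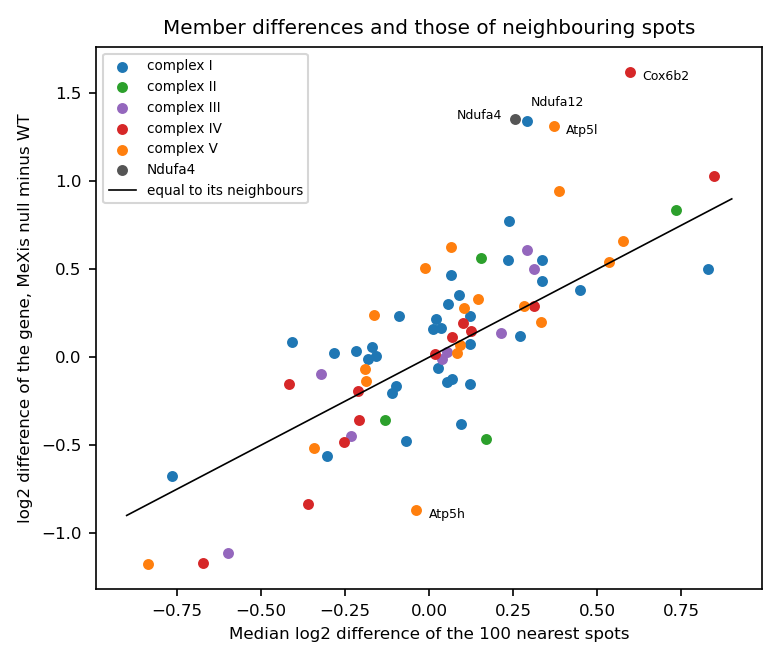
Log2 difference of each member (y) against the median log2 difference of the 100 spots nearest to it on the glass (x), coloured by complex, with the line of equal values. The points follow the line (r = 0.78 over 77 genes), and Cox6b2, Ndufa4, Ndufa12 and Atp5l lie furthest above it and Atp5h furthest below.

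Genes that work with these subunits were described from lists of known function. The mitochondrial genome encodes the central subunits of complexes I, III, IV and V, and 10 of the 11 of these genes on the array were measured, with 4 called higher, 1 lower (18.9% and 13.6% of all genes) and a median of 0.38. ND4L gave 3101 on WT and 12949 on MeXis null (1.99, and 1.34 after surface correction), and ND3 gave 3345 and 11662 (1.73, and 1.62). ND2 stood at 0.84 (20695 and 38965) and ND1 at 0.68 (4625 and 7788), and after surface correction they stood at 0.24 and 0.25, inside 1.5-fold. COX1, the catalytic subunit of complex IV, gave 75764 and 36157 (-1.14, and -0.77), and COX2 gave 96654 and 73047 (-0.48). All of these but ND6 are known to be transcribed from the same strand as long precursors, and within that group the values ran from -1.14 to 1.99. After surface correction the median of the 10 was 0.07, with 2 called higher and 1 lower.

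Assembly factors, which build the complexes without staying in them, had 42 of 46 genes measured, a median of 0.16, and 5 called higher and 0 lower (18.9% and 13.6% of all genes). Sco1, which delivers copper to complex IV, gave 34.2 on WT and 165 on MeXis null (2.20, and 1.96 after surface correction), a difference that starts from a dim WT signal. Cox11, another copper factor, gave 605 and 1375 (1.11), and 0.17 after surface correction. The lowest were Lrpprc, which stabilises mitochondrial messenger RNAs (-0.45, 4019 and 3097), and Cox14 (-0.44, 18767 and 14548), which stood at -0.90 and -0.12 after surface correction. Other measured probes stood at 0.24 and -1.42 for Lrpprc and at -0.06 for Cox14. After surface correction the median was 0.06, with 3 called higher and 2 lower.

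The mobile electron carriers, coenzyme Q synthesis and further subunits outside the symbol rule made a list with 23 measured genes, a median of 0.11, and 4 (17.4%) called higher and 2 (8.70%) lower, against 18.9% and 13.6% of all genes. Cycs, cytochrome c, gave 1881 on WT and 7548 on MeXis null (1.93, and 1.69 after surface correction), but its other measured probe stood at -0.34. In coenzyme Q synthesis, Coq7 gave 481 and 1205 (1.25, and 0.70 after surface correction), with all 3 measured probes above 0, and Coq3 gave 685 and 291 (-1.31, and -1.20). The sulfide oxidoreductase Sqrdl stood at -0.82 (2574 and 1534, and -0.73 after surface correction), with its other probe at 0.80. The calls in this list were thus on both sides of 0 and, for Cycs and Sqrdl, not shared by their probes.

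Among regulators of mitochondrial genes 18 were measured, with a median of 0.26, 4 (22.2%) called higher and 0 lower, against 18.9% and 13.6% of all genes, and after surface correction a median of -0.11 with 1 called higher. The highest were the mitochondrial helicase Peo1 (1.31, from 32.1 to 84.1) and the polymerase subunit Polg2 (1.06, from 187 to 411), which stood at 1.08 and 0.43 after surface correction, and the lowest were Nrf1 (-0.47, 935 and 712) and Polrmt (-0.32, 1393 and 1177), although the other measured probes of Nrf1 stood at 0.33 and 0.46. Tfam, which packs mitochondrial DNA, stood at 0.59 (804 and 1272) and was called higher, with a second probe at -0.02, but was not called after surface correction (0.42). Gabpa stood at 0.26 (324 and 408), Esrra at 0.50 (3449 and 5145) with its other probe at -0.43, and the coactivators Ppargc1a at 0.33 (52.1 and 69.0) and Ppargc1b at 0.09 (440 and 494). These 4 genes lay within 1.5-fold.

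The TCA cycle and pyruvate dehydrogenase, which supply NADH and succinate, had 17 measured genes with a median of -0.04, 3 (17.6%) called higher and 3 lower, against 18.9% and 13.6% of all genes. Dld, the shared dehydrogenase subunit, stood at -0.99 (2360 and 1253, and -0.69 after surface correction). Pdha1 stood at 0.83 (1564 and 2929) and Idh3a at 0.61 (1490 and 2400), and after surface correction they stood at 0.15 and 0.24. After surface correction 0 were called higher and 3 lower, and the median was -0.18 against -0.04 over all genes.

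**Figure D4:**
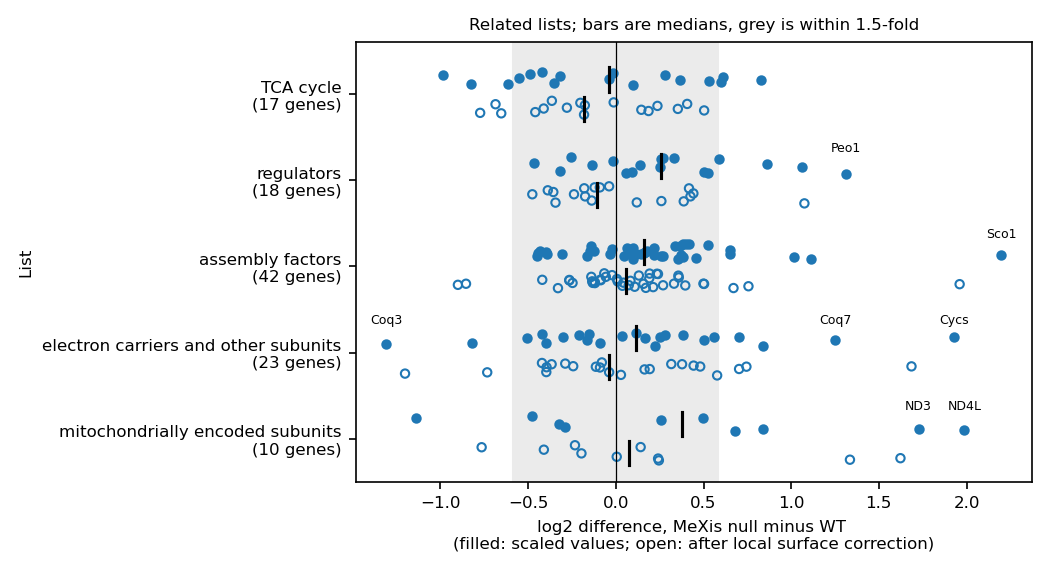
Log2 difference of each measured gene (x, MeXis null minus WT) in 5 related lists (y), as scaled (filled) and after local surface correction (open), with medians as bars and 1.5-fold as the grey band; the outermost genes are named. Medians as scaled run from -0.04 in the TCA cycle to 0.38 in the mitochondrially encoded subunits, and after correction they run from -0.18 to 0.07.

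The promoters of respiratory chain genes are known for sites of NRF1, GABPA and YY1, factors that coordinate nuclear genes of the mitochondrion. RefSeq promoters of GRCm38.p6, from 250 bases before to 50 after the start, were matched for 68 of the 84 genes and searched on both strands, so that a promoter could hold more than 1 motif. The letters of NRF1 (GCGCA, then any base, then GCGC) were found in 17 of the 68, against 5.19% of 27025 genes. CCGGAAG of GABPA was found in 16 (23.5%, against 9.93%), and AAGATGGCG of YY1 in 8 (11.8%, against 1.64%). At least 1 of the 3 was found in 35 promoters (51.5%, against 15.1%). Windows of 30 bases are shown for genes called in opposite directions, on the strand of the gene and with the match in capitals, which for GABPA is the reverse complement.
Sdhd, NRF1: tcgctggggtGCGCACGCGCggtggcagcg
Atp5h, NRF1: gaccccgacgGCGCAGGCGCcgcgcccgcc
Atp5l, GABPA: acttcaccgatCTTCCGGaccaacatgaat
Cox6b1, GABPA: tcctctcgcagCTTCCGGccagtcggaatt
As scaled, a match to the same motif thus stood before Sdhd (0.84) and Atp5h (-0.87), and before Atp5l (1.31) and Cox6b1 (-1.17). After surface correction these genes stood at 0.10, -0.83, 0.94 and -0.49, and Sdhd and Cox6b1 were not called. Another Atp5h probe stood at 1.13. The promoters of Sdhd and Atp5h each held both the NRF1 and the GABPA letters. Whether a motif goes with the direction of a difference was not tested. A match of letters is a description of the sequence and not of binding.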

How the data were processed

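Total RNA of WT and MeXis null macrophages was measured on 1 one-colour Agilent array per genotype, each a pool of 3 samples per the labels' design text. The deposited files hold linear scanner intensity per spot. Per the file headers, Agilent Feature Extraction 11.5.1.1 extracted it and subtracted background, and probe positions use mm9. For all 62976 features, the intensity in the deposited series matrix was the same as the scanner's processed signal. Both arrays lay on the same slide and scan, so neither separates the genotypes. Their number, and not counting error, limits the precision.

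Values were log2 intensity minus each array's 75th percentile over spots well above background on both arrays, computed from the deposited intensity. Control spots were left out, and so were outlier spots of either array (305 on WT, 205 on MeXis null). Spots of one probe were averaged, and the probe of highest mean log2 signal stood for its gene. No p-value was computed. The alternatives were normexp (offset 50, limma 3.58.1, R 4.3.3), quantile, loess (span 0.3), median, all-probe and spike-in scaling, the series matrix, surface correction, filters on dim probes, the median of probes, outlier spots kept, and thresholds. Python 3.11.15 with numpy 2.4.6, pandas 2.3.3, scipy 1.17.1 and statsmodels 0.14.6 was used, and the steps were tested on simulated data, where genes left unchanged were also called.

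Named genes were the called members, the 3 highest, 3 lowest and 2 brightest of each complex, members whose probes disagree in sign, the core subunits, all of complexes II and III, the 2 highest and 2 lowest of each related list, and a fixed set of regulators. Genes named beside them (accessory subunits, isoforms and outlier-marked genes) were chosen after their values were seen. The members and all lists were chosen with earlier results of these data known. The MeXis probe was named through its RefSeq accession. Some genes that this rule covers are not reported here.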

Additional observations from a re-analysis of the deposited data

How the results depend on the processing

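Of the 100 values for the medians and counts under the alternatives, 79 were counted as unchanged, which for counts meant within 1.5 times. For medians the limit was narrower than the SD of 0.47 between single spots. Apart from spike-in scaling, the moves of medians given here were smaller than that SD. The median of the 77 members moved to -0.0053 with quantile normalization, 0.020 with loess, 0.040 with the 75th percentile of all probes and -0.60 with spike-in scaling. Spike-in scaling also moved the medians of complexes I to V, to -0.63, -0.61, -0.71, -0.70 and -0.46, while all genes stood at -0.66. The median of complex III was -0.30 with normexp, that of complex IV -0.21 with quantile normalization, and that of complex V 0.086 with quantile normalization and 0.068 with surface correction. Members called higher numbered 11 as reported, 4 with spike-in scaling, 4 with surface correction and 5 at 2-fold. Members called lower numbered 6 as reported, 12 with normexp, 40 with spike-in scaling, 2 with surface correction, 3 with the median of a gene's probes and 3 at 2-fold. Of 453 values for 38 named members, 391 moved by less than the SD between spots and 59 by more. The other 3 were called members that changed sign with spike-in scaling: Atp5d (-0.088), Atp5g1 (-0.053) and Uqcr11 (-0.11). Members that were not called also crossed 0 but were not counted among these 3. Over the settings Sdhb (0.56 as reported) reached -0.15, Ndufs8 (0.55) reached -0.16 and Cox6a1 (-0.15) reached 0.26. Spike-in scaling and the other scalings that shift a whole array change all genes alike by construction; for the other alternatives the cause was not tested. Leaving out a replicate was not possible with 1 array per genotype, and no paired analysis was possible because the labels give no shared replicate numbers. Signals close to background limit Cox6b2 and Atp5s, which the stricter filter on dim probes left out.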
